A study of Rattus norvegicus with 112 samples.

Results

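The samples described here were 8 of the 112 arrays of the series: 4 arrays of rat cortical cultures given a 10 min pulse of NMDA and harvested 24 h later, and 4 control arrays of the same 4 cultures. They were chosen by their labels, which name the experiment, the pulse and a culture label, so that each treated array had a control array with the same label. The cultures are numbered 1 to 4 here in the order of those labels, and cultures 3 and 4 carry the same date, of which 1 has the suffix RC. For the treated cultures, 1 mM NMDA was applied for 10 min and washed out, and cells were harvested after another 24 h. Control cultures are labelled as controls at 0 min, and the labels used here do not say whether their medium was also changed. Arrays of 30 and 60 min pulses of the same 4 cultures shared the fit, and cultures of another experiment, with 3 treated and 3 control arrays, were the other comparison. Those were treated with 1 mM NMDA for 10 min with no washout or later harvest given in the labels, and are called continuous here. The labels give cerebral cortex as the source and total RNA as the molecule, and call the cells of the continuous experiment primary cortical neurons. They give no strain, sex or age of the animals and no age of the cultures.

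NMDA opens the glutamate receptors named after it, cation channels at excitatory synapses that pass calcium as well as sodium. Calcium entering through them is known to activate kinases that phosphorylate the transcription factor CREB, which binds cAMP response elements in the promoters of genes such as Fos, Bdnf and Nr4a1. Immediate early genes of this kind rise and decline quickly in neurons, their products drive later genes for trophic factors, neuropeptides and synaptic proteins, and strong or lasting activation of these receptors is known to kill neurons.

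Promoter windows are shown for the 5 genes with the largest rise that have an entry in the sequence table, because the genes that rose were searched for the sites named above. Each window holds 250 bases before and 50 bases after an annotated start, 5′ to 3′ on the strand of the gene, from RefSeq on build GRCr8. Capitals mark TGACG, the core of the cAMP response element, on either strand. Bdnf has 6 annotated starts and Crem has 3, and the window with the most matches is shown for each. Fos, Jun, Nefl, Nr4a3, Penk and Pnoc, which also rose, have no entry in that table.
Bdnf, GRCr8 chr3:116637608-116637907, strand +: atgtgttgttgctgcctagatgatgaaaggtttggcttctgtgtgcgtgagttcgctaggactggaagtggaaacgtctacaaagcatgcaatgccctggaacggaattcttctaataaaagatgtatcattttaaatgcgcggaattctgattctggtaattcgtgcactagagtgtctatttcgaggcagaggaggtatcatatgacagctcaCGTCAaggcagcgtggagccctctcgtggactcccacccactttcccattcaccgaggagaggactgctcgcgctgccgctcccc
Nr4a1, GRCr8 chr7:134259888-134260187, strand +: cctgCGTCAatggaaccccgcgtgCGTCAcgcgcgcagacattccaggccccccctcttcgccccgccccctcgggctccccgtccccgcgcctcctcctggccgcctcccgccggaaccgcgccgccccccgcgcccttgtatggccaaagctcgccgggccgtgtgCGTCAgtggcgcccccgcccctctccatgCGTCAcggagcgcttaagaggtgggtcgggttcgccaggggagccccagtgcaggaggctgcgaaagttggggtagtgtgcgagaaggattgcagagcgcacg
Crem, GRCr8 chr17:58985240-58985539, strand +: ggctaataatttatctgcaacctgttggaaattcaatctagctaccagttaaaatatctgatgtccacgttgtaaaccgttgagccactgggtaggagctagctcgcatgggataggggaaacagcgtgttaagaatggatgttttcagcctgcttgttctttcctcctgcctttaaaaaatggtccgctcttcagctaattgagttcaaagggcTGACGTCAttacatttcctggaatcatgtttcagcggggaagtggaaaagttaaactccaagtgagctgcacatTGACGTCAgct
Nptx2, GRCr8 chr12:15161996-15162295, strand -: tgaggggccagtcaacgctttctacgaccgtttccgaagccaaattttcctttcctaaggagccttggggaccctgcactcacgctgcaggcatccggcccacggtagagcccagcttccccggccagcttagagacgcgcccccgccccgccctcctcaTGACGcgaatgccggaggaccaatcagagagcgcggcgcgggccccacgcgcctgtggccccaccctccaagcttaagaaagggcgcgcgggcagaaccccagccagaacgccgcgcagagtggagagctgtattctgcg
Sst, GRCr8 chr11:90461296-90461595, strand +: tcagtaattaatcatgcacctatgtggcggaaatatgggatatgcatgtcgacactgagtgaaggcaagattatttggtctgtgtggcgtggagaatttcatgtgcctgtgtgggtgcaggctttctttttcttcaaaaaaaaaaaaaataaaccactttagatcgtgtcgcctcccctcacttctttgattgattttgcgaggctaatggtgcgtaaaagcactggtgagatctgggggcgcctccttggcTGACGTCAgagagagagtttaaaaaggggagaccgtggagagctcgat

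The Crem window held the full element TGACGTCA at 2 places and the Sst window at 1 place, where the core appears on both strands. The Nr4a1 window held 4 separate cores, and the Bdnf and Nptx2 windows held 1 each. Of the 17 genes that rose, 11 matched the table by symbol, and 10 of these held the core in at least 1 window, the exception being Igf1. Among all 415 genes tested that matched the table, 131 held it, which is 31.6%, and 21.2% of all 33469 windows did. Counting only genes with 1 window, it was 8 of 9 genes that rose and 29.9% of 384 tested. The full element was present for 3 genes that rose, Crem, Sst and Vgf, against 3.61% of the genes tested. TGANTCA, the AP-1 site of Fos and Jun dimers, was present for 1 of the 11, Bdnf, against 7.47%, and AAAGGTCA, the site of NR4A receptors, for 0, against 1.93%. All motifs were read on both strands, the core is part of the full element, and a match is a description of the letters only.

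The treated array of culture 3 stood apart from the rest. Its median correlation with the other 15 arrays of the experiment was 0.63, while the other 7 arrays of the comparison lay between 0.89 and 0.91. The median size of its difference from the control of culture 3 was 1.06 on the log2 scale, against 0.484, 0.447 and 0.453 in cultures 1, 2 and 4. Of the 88 brightest probe sets, 55 lay below the control there with a median of -0.43, although the median over all 884 tested was 0.58. Its ratio of 3′ to 5′ signal for GAPDH, a sign of how intact the RNA was, was 2.61, and the other 7 arrays ranged from 1.32 to 1.93. A 60 min array of culture 4 also stood apart. Results below are with all arrays unless said otherwise, and some are also given without these 2.

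A day after the pulse, 17 named genes were higher than in control at 1 or more probe sets, in 4 of 4 cultures each. Ordered by size, the first were Bdnf, which encodes a neurotrophin, at a log2 difference of 3.12, and Fos, an immediate early transcription factor, at 3.10. Without the 2 arrays that stand apart, these probe sets were at 2.79 and 2.86. Of 884 probe sets tested, 25 rose past the threshold, an adjusted p of 0.05, which is 2.83%, and 1 fell, which is 0.113%. At an unadjusted p under 0.05 there were 116. With only the 8 treated and control arrays in the fit, 12 rose and 0 fell. The differences of the 25 ran from 1.33 to 3.12 on the log2 scale with a median of 1.94, while the median over all 884 was -0.04. Every treated array lay above every control array in 32 of the 884, which is 3.62%, and 20 of the 25 were among these. Values are signals in arbitrary intensity units, log2 differences are of the signal plus an offset of 63.1 and so understate changes of dim probe sets, and p-values are from limma with the culture as a block. The labels do not say that the cultures came from separate animals, and p-values then measure the spread between these arrays, which may be technical. In bulk cultures, fewer cells of a type and less RNA per cell cannot be told apart.

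**Figure D1:**
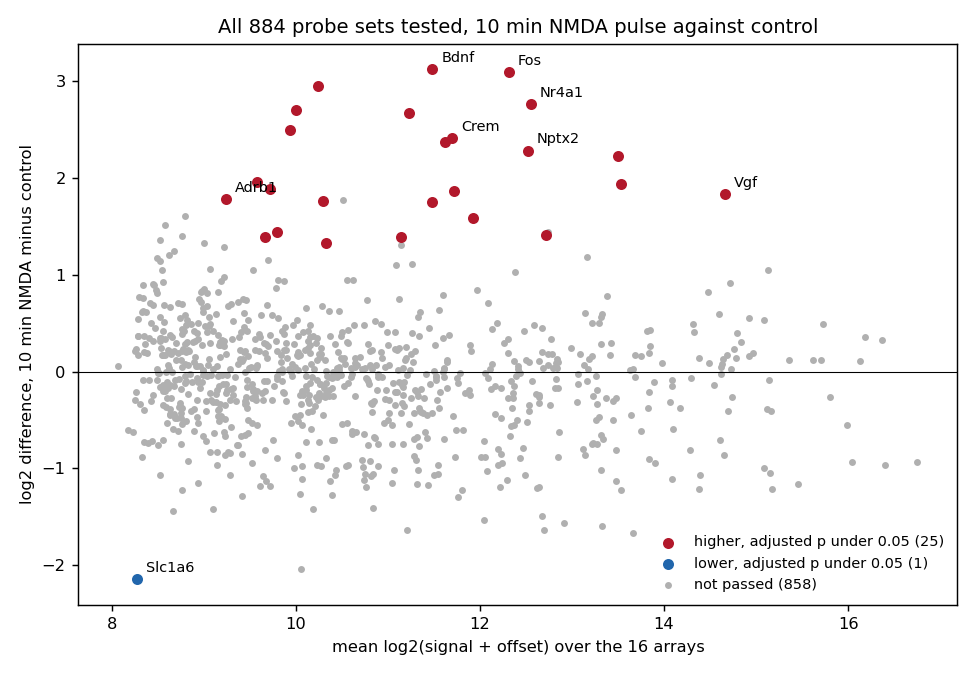
Each point is 1 of the 884 probe sets tested, by its mean log2(signal + offset) over the 16 arrays on the horizontal axis and its log2 difference, 10 min NMDA minus control, on the vertical axis. The 25 probe sets that rose (red) lie between Adrb1, the dimmest of them, and Vgf, the brightest, and Slc1a6 (blue), the 1 that fell, is among the dimmest.

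Immediate early transcription factors made up 6 of the 17 genes that rose. Of the 9 genes of this list tested, 6 rose and 0 fell, with a median difference of 1.75, beside 13 of all 538 genes tested by their brightest probe set that rose, which is 2.42%. Fos, a partner in AP-1 dimers, rose at all 3 of its tested probe sets. At X03347cds_g_at it had signals of 16616, 9816, 10087 and 6084 after NMDA in cultures 1 to 4, against 2298, 1024, 632 and 1006 in control. Every treated array was above every control array, and the log2 difference was 3.10 (SE 0.29, adjusted p = 1.82e-05). Its probe set X06769cds_at rose by 2.68 (SE 0.30, adjusted p = 6.47e-05), and X06769cds_g_at rose by 2.23 (SE 0.25, adjusted p = 6.47e-05). Culture 1 was the highest at all 3 after NMDA, and it was also the highest of the controls at all 3.

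Nr4a1, an orphan nuclear receptor, rose at both of its probe sets. At U17254_g_at its signals were 13607, 8032, 23123 and 6248 after NMDA, against 1335, 1675, 1348 and 2149.7 in control, a log2 difference of 2.76 (SE 0.38, adjusted p = 0.000371). Culture 3 was the highest treated array and the control of culture 4 the highest control, and the groups did not overlap. Without the 2 arrays the difference at U17254_g_at was 2.41. U17254_at rose by 2.37 (SE 0.40, adjusted p = 0.00234). Nr4a3, a receptor of the same family, had 9653, 9359.6, 8546 and 5985 at rc_AI176710_at after NMDA, against 2263, 3161, 4039 and 3029 in control, and rose by 1.41 (SE 0.34, adjusted p = 0.0307). Its other tested probe set, X86003_at, was also apart between the groups but did not pass, at 0.95 (SE 0.31, adjusted p = 0.168), and without the 2 arrays it did, at 1.10 (SE 0.28, adjusted p = 0.0306).

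Crem encodes activators and repressors that bind the cAMP response element. At S66024_g_at it had signals of 3860.3, 4646, 12031 and 4471 after NMDA, against 2159.9, 778, 490.0 and 1144 in control, and rose by 2.42 (SE 0.44, adjusted p = 0.0045). The treated array of culture 3 was 12031 where the other 3 were close together, and without the 2 arrays the difference was 1.91 (SE 0.30, adjusted p = 0.00114). Junb, another AP-1 component, had 6069.9, 3239, 4869 and 3335 after NMDA, against 2065, 1511, 447 and 1489.8 in control, and rose by 1.75 (SE 0.34, adjusted p = 0.00509). The control of culture 3 was the lowest of all 8 arrays, and without the 2 arrays Junb was at 1.44 (SE 0.26, adjusted p = 0.00269). Jun, the main partner of Fos, had 1766, 1271, 1883 and 1386 after NMDA, against 755, 407, 811 and 453 in control, and rose by 1.33 (SE 0.30, adjusted p = 0.0185). No treated array overlapped the controls for either gene.

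The other 3 genes of the list did not pass. Egr1, a zinc finger factor, was at 1.05 (adjusted p = 0.108) and Fosl2, a Fos relative, at 1.78 (adjusted p = 0.216). Fosl1, also a Fos relative, was at -0.12 (adjusted p = 0.972). Its treated array of culture 3 had 79.7, against 2001 to 4512 on the other treated arrays. Without the 2 arrays that stand apart Fosl1 was at 0.53 and did not pass either (adjusted p = 0.581). In the pulse set with 1 array a group, given below, Fosl1 was higher by 5.16. Creb1 itself was at -0.32 (adjusted p = 0.798) with signals averaging 445 ± 91 after NMDA and 612 ± 304 in control (SD, n = 4 each). Of the 7 CREB and cAMP signalling genes tested, Crem alone rose, beside 2.42% of all genes, and none fell, with a median of -0.05. Phosphodiesterase genes of that list, which break down cAMP, were at -0.19 (adjusted p = 0.889) for Pde4a, 0.66 (adjusted p = 0.358) for Pde4b and 0.30 (adjusted p = 0.856) for Pde4d.

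**Figure D2:**
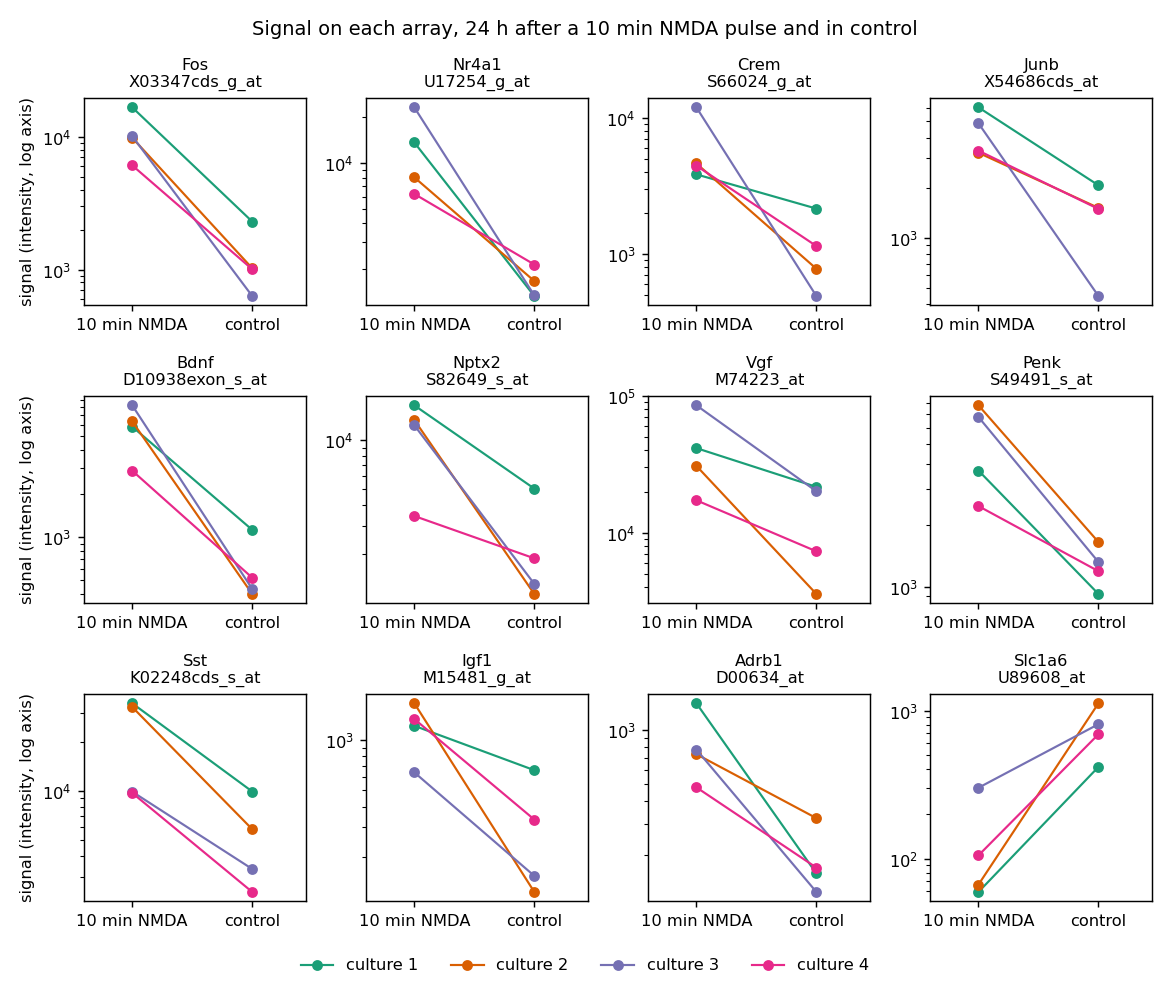
Signal on a log axis for 12 probe sets on the 4 arrays after a 10 min NMDA pulse (left of each panel) and the 4 control arrays (right), with lines joining the arrays of a culture. All lines fall to the right in the first 11 panels, which are genes that rose, and climb in the last, Slc1a6, and the treated array of culture 3 is the highest for Nr4a1, Crem, Bdnf and Vgf.

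Genes for secreted proteins that neurons make in response to activity formed the next group. Of 6 activity-regulated effector genes tested, 3 rose, Bdnf, Nptx2 and Vgf, and the median over the list was 1.22, beside 2.42% of all genes. Without the block on cultures 2 of the 6 rose. Bdnf, which binds the receptor TrkB, rose at 4 of its 7 tested probe sets. D10938exon_s_at had signals of 5850.4, 6360.3, 8226 and 2890.4 after NMDA, against 1122, 402, 436 and 522 in control, and rose by 3.12 (SE 0.37, adjusted p = 8.54e-05). The control of culture 1 was the highest control and lay below the lowest treated array.

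S76758_i_at had 2913, 4960.3, 1612 and 1020.5 after NMDA, against 258, 268, 337 and 112 in control, and rose by 2.96 (SE 0.47, adjusted p = 0.00175). The Bdnf probe set rc_AI030286_s_at rose by 2.70 (SE 0.41, adjusted p = 0.00108), S71196mRNA_s_at rose by 2.50 (SE 0.33, adjusted p = 0.000293), and all 4 probe sets that passed had treated arrays wholly above the controls. The remaining 3 did not pass and overlapped between the groups, X67108_at at 1.29 (SE 0.41, adjusted p = 0.151), S76799_at at 0.62 (SE 0.31, adjusted p = 0.399) and S71201mRNA_at at 0.17 (SE 0.53, adjusted p = 0.935). Without the 2 arrays X67108_at also passed, at 1.77 (SE 0.30, adjusted p = 0.00203). The probe sets of this gene thus disagreed in size, and the levels of different probe sets cannot be set against each other.

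Nptx2 encodes a secreted pentraxin that gathers AMPA receptors at excitatory synapses. At S82649_s_at it had 16307, 13261, 12320.0 and 3431 after NMDA, against 5047, 1144, 1319 and 1891 in control, and rose by 2.29 (SE 0.39, adjusted p = 0.00293). The groups overlapped, since the treated array of culture 4 lay below the control of culture 1. The other probe set of this gene, S82649_r_at, was at 1.11 (SE 0.48, adjusted p = 0.364). Vgf, the precursor of secreted neuropeptides, had 41538, 30821, 85328 and 17270.2 after NMDA, against 21650.0, 3572, 20104 and 7319 in control, and rose by 1.83 (SE 0.42, adjusted p = 0.0207). The treated array of culture 4 lay below the controls of cultures 1 and 3, but Vgf was higher after NMDA in each of the 4 cultures, by 0.94, 3.09, 2.08 and 1.23. Without the block on cultures it did not pass (adjusted p = 0.0888).

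Igf1, insulin-like growth factor 1, had 1222, 1667, 642 and 1342 at M15481_g_at after NMDA, against 662, 123, 154 and 334 in control, and rose by 1.89 (SE 0.34, adjusted p = 0.00418). In culture 3 the treated signal was slightly below the control of culture 1, so the groups overlapped. The other tested Igf1 probe sets did not pass, M15481_at standing at 0.49 (SE 0.49, adjusted p = 0.755) and X06107_r_at at -0.08 (SE 0.32, adjusted p = 0.952). Of the 18 neurotrophic factors and receptors tested, Bdnf and Igf1 rose, beside 2.42% of all genes, none fell, and the median was 0.00. Ntrk2, the gene of the BDNF receptor TrkB, was at -0.50 (adjusted p = 0.584), and Ntf3, another neurotrophin gene, at -0.25 (adjusted p = 0.876). Ptgs2, Plat and Syt4, the other effector genes tested, were at 0.23 (adjusted p = 0.875), 0.56 (adjusted p = 0.699) and 0.60 (adjusted p = 0.367).

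Besides Vgf, 4 neuropeptide precursor genes rose at 1 probe set each, Penk, Sst, Tac1 and Pnoc. Of the 10 genes of the neuropeptide and granin list tested, each by its brightest probe set, 2 rose, Penk and Vgf. That is beside 2.42% of all genes that rose, and in this list none fell and the median was 0.67. Penk, the precursor of enkephalins, had 3712, 7758, 6798 and 2486 at S49491_s_at after NMDA, against 921, 1656, 1321 and 1191 in control, and rose by 1.86 (SE 0.34, adjusted p = 0.00418). Its treated arrays all lay above the controls, while its dimmer probe set, rc_AI009300_at, was at 0.28 (SE 0.47, adjusted p = 0.881). Sst, somatostatin, had 34216, 32477, 9896 and 9722 at K02248cds_s_at after NMDA, against 9921, 5845, 3346 and 2424 in control, and rose by 1.94 (SE 0.37, adjusted p = 0.00509). The treated arrays of cultures 3 and 4 lay just below the control of culture 1, so the groups overlapped, and Sst did not pass without the block (adjusted p = 0.213).

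A brighter Sst probe set, M25890_at, turned on 1 array. It had 69804, 57208, 671 and 26562 after NMDA, against 30693, 14633, 6406 and 8530.1 in control, at 0.41 (SE 0.73, adjusted p = 0.886). In culture 3 the treated signal was the lowest of all 8 and the other 3 treated arrays were each above their own control, and without the 2 arrays Sst rose there by 1.50 (SE 0.23, adjusted p = 0.000923). Tac1, the precursor of substance P, had 751, 1166, 2113 and 1330.0 at X56306_s_at after NMDA, against 347, 304, 793 and 371 in control, and rose by 1.44 (SE 0.30, adjusted p = 0.0123), and at its brighter probe set, M15191_s_at, it was at 0.84 (SE 0.38, adjusted p = 0.367). Pnoc, the precursor of nociceptin, had 2455, 4551, 4373 and 2019 at S79730_s_at after NMDA, against 1820.2, 1086, 1191 and 763 in control. It rose by 1.40 (SE 0.35, adjusted p = 0.0384) with no overlap between the groups, and X97374exon_g_at, its brighter probe set, was at 0.50 (SE 0.32, adjusted p = 0.573).

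The remaining precursors did not pass. Pdyn, prodynorphin, was at 1.33 (adjusted p = 0.254) and Crh, corticotropin-releasing hormone, at 1.25 (adjusted p = 0.0811). Npy, Cck and Avp, the precursors of neuropeptide Y, cholecystokinin and vasopressin, were at -0.10 (adjusted p = 0.953), -0.37 (adjusted p = 0.798) and 0.20 (adjusted p = 0.889).

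The other genes that rose were 2 receptors, a neurofilament and a pair of unnamed probe sets. Adrb1, the beta-1 adrenergic receptor, had 1410.2, 734, 778 and 479 after NMDA, against 159, 323, 125 and 171 in control, and rose by 1.79 (SE 0.34, adjusted p = 0.00509). Its arrays did not overlap, and it was the 1 of 18 monoamine and adrenergic receptor genes tested that passed, beside 2.42% of all genes, in a list with a median of 0.13. Il6r, the interleukin 6 receptor, is given after its values were seen, as the only gene that rose and was not named by the rule. It had 1556, 1224, 572 and 903 after NMDA, against 497, 415, 202 and 315 in control, and rose by 1.39 (SE 0.27, adjusted p = 0.00509) with nearly equal differences in the 4 cultures, 1.53, 1.43, 1.26 and 1.35. Nefl, the light neurofilament subunit, had 3623, 5788, 12731 and 3691 at M25638_s_at after NMDA, against 2332, 1442, 1853 and 1789.6 in control, and rose by 1.58 (SE 0.38, adjusted p = 0.031).

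At Nefl, as at Sst, the treated array of culture 3 lay far below the others at the brighter of the probe sets. The brighter AF031880_at had 14569, 21702, 1294 and 13737 after NMDA, against 8649.9, 5112, 7978 and 7215 in control, at 0.29 (SE 0.55, adjusted p = 0.889). Without the 2 arrays Nefl rose there too, by 1.15 (SE 0.24, adjusted p = 0.00982), and by 1.14 at M25638_s_at. Of the probe sets that the annotation pairs with no gene, AF030088UTR#1_at rose by 1.96 (SE 0.37, adjusted p = 0.00509) and AF030087UTR#1_at by 1.77 (SE 0.42, adjusted p = 0.0307). The rise of AF030087UTR#1_at did not pass in 11 of the 22 alternatives run, among them the fit without the block (adjusted p = 0.146). At AF030088UTR#1_at the signals were 1923, 983, 567 and 1535 after NMDA, against 359.6, 50, 367 and 375 in control.

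**Figure D3:**
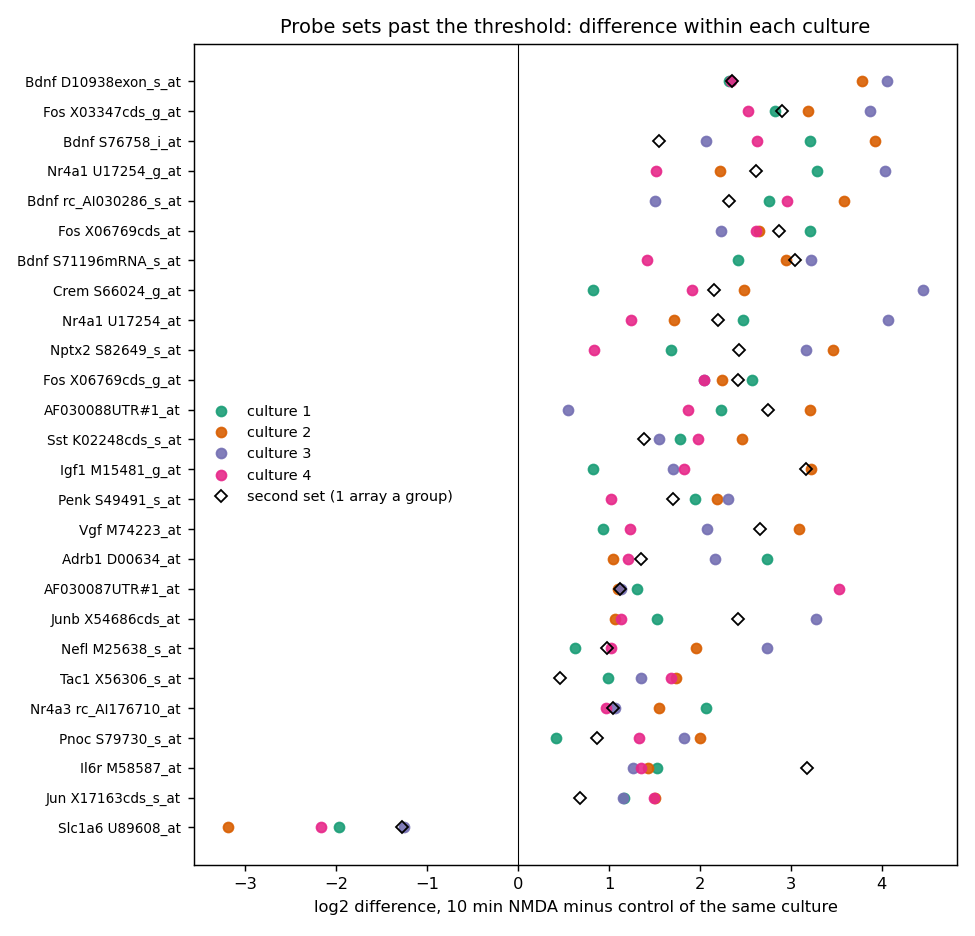
The log2 difference, 10 min NMDA minus control of the same culture, for the 25 probe sets that rose and Slc1a6, with 1 coloured point for each of the 4 cultures and an open diamond for the unreplicated second pulse set. All points of the 25 lie right of 0, between 0.42 and 4.45 for the cultures, and all of Slc1a6 lie left of it.

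Within cultures the differences of these 25 probe sets ran from 0.42, Pnoc in culture 1, to 4.45, Crem in culture 3. All 25 passed again without the 2 arrays that stand apart, with differences from 1.14 to 2.86. In a further pulse set with 1 array a group, all 25 were higher after 10 min of NMDA than in its control, by 0.46 to 3.18 with a median of 2.32. Over all 884 probe sets the median there was -0.05 and 413 were higher. In that set Bdnf (D10938exon_s_at) had a signal of 2688 after NMDA, against 485 in control, and Fos (X03347cds_g_at) had 7168, against 918. Repeat arrays existed for the treated samples of cultures 3 and 4. The repeat of culture 3 equalled the array used here within 0.05 at all 1322 probe sets, so it adds no measurement and it is not given which run it came from. The repeat of culture 4 correlated with its first array at 0.89, and all 25 probe sets were above the control of culture 4 on it as well. That was largely set in advance, since the same treated sample and the same control had helped to choose the 25.

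Slc1a6, a glutamate transporter gene of the EAAT family, was the 1 gene that fell. It had 59.5, 66.7, 301 and 105 after NMDA, against 416, 1119.8, 809 and 692 in control, and fell by 2.15 on the log2 scale (SE 0.46, adjusted p = 0.0143). Every treated array was below every control array, but 3 of the 4 treated signals were near the offset, where the size of a log2 difference depends on the offset. Without the block it did not pass (adjusted p = 0.146). The next smallest p-values among lower probe sets belonged to Pnck, a calmodulin-dependent kinase gene, at -1.44 (SE 0.40, adjusted p = 0.0785), Rnf112, a ring finger gene, at -2.04 (SE 0.58, adjusted p = 0.0842), Nrxn2, a presynaptic adhesion gene, at -1.12 (SE 0.33, adjusted p = 0.108), and Tubb5, a beta-tubulin gene, at -1.56 (SE 0.47, adjusted p = 0.108). None of these 4 passed. The other tested Pnck probe sets, AB004267_at and AB004267_g_at, were at -0.36 (adjusted p = 0.876) and -0.89 (adjusted p = 0.367).

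Lower probe sets depended on the arrays that stand apart. Without them 32 probe sets rose, which is 3.62%, and 19 fell, which is 2.15%. All 19 had also been below 0 with all arrays, which was largely set by the arrays that chose them. Leaving out the treated array of culture 3 alone gave 3 that fell, and leaving out both arrays but with no block also gave 3. Their differences without the 2 arrays ran from -2.12 to -0.62, and 15 of the 19 had 1 gene each. Named here after their values were seen, these were Slc1a6 at -2.12, Pnck at -1.73, Rnf112 at -1.63, Scarb1, a lipoprotein receptor gene, at -1.33 and -0.77, Atp2b2, a plasma membrane calcium pump gene, at -1.20, Hrk, a pro-apoptotic BH3 gene, at -0.97, and Psen2, a presenilin gene, at -0.95.

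Faim2, a gene that protects neurons from Fas-induced death, was at -0.94, Tubb5 at -0.90 and -0.74, Camkk1, a calmodulin-dependent kinase kinase gene, at -0.85, Cacnb3, a calcium channel subunit gene, at -0.74, Nrxn2 at -0.73 and Ctxn1, cortexin 1, at -0.68. In the further pulse set 18 of the 19 were lower after 10 min of NMDA, from -1.33 upwards, and the exception was Pnck at 0.95. At Tubb5 (rc_AI229707_s_at) the signals were 4707, 7408, 1045 and 10513 after NMDA, against 9097, 15615, 11962 and 18452 in control. The treated array of culture 3 was the lowest, and Tubb5 did not pass without it alone (adjusted p = 0.105) but passed without both arrays (adjusted p = 0.00255). At Psen2 the culture 3 array lay 1.32 above its control, against differences of -0.84, -1.25 and -1.02 in cultures 1, 2 and 4. Also above the control in culture 3 were Camkk1 by 1.13, Faim2 by 0.68, Atp2b2 by 0.18 and Pnck (D86556_i_at) by 0.02. So were Scarb1 (AF071495_s_at) by 0.72, X07287cds_s_at by 0.90 and X66022mRNA#1_s_at by 0.87, and the rest of the 19 were below. The 7 probe sets that rose only without the 2 arrays were those of Sst, Bdnf, Nefl and Nr4a3 given above, Cited2, a transcriptional coactivator gene, at 1.58, and Ccl2, a chemokine gene, at 1.05 and 0.98.

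**Figure D4:**
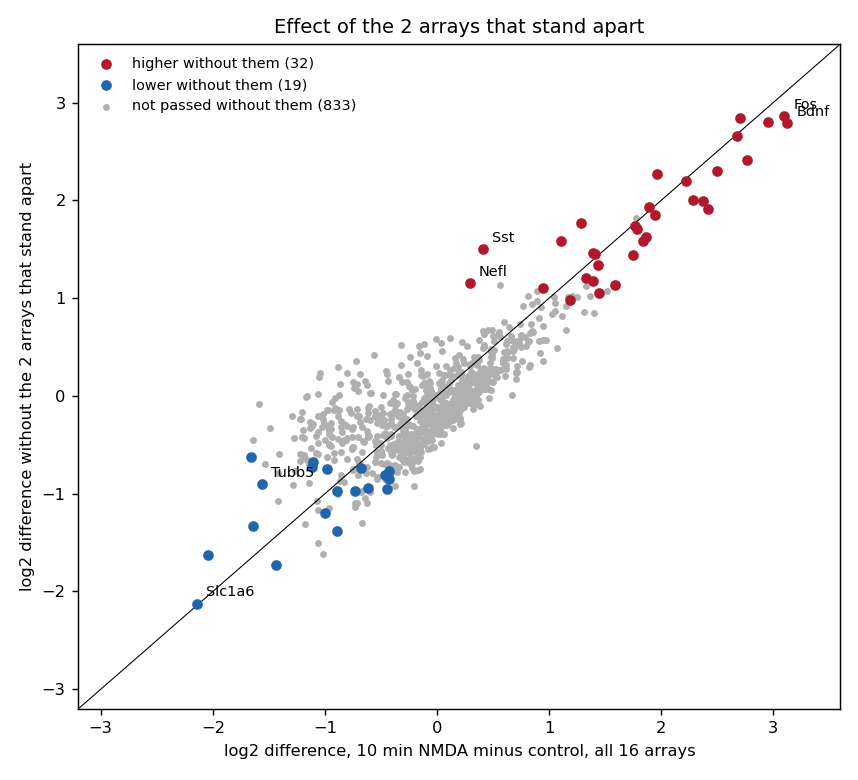
Log2 difference, 10 min NMDA minus control, of the 884 probe sets with all 16 arrays (horizontal axis) and without the 2 arrays that stand apart (vertical axis), with the line of equal values. The 32 that rose without them (red) lie near the line except Sst and Nefl, which are far above it, and the 19 that fell (blue) lie on both sides of it.

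NMDA receptor subunits, the channels on which the pulse acts, did not pass. Their 6 tested genes had 12 probe sets, all of them with overlapping groups, and log2 differences from -0.63 to 0.35. Of all 884 probe sets tested, only 2.83% rose and 3.62% had every treated array above every control array. Grin1, the obligatory subunit, was at 0.18 (SE 0.38, adjusted p = 0.904) at S39221_g_at, with signals of 1134, 904, 2489 and 788 after NMDA, against 1792, 786, 574 and 1458 in control. At U11418_s_at it was at -0.58 (SE 0.40, adjusted p = 0.604). Grin2b, a glutamate-binding subunit that is abundant in young cortex, had 1798, 1249, 2821 and 2170.3 after NMDA, against 1199.7, 1342, 2216 and 2044 in control, at 0.22 (SE 0.31, adjusted p = 0.856). Grin2a, which gains weight as cortex matures, was at -0.26 (SE 0.58, adjusted p = 0.904) at AF001423_at and at 0.35 (SE 0.35, adjusted p = 0.755) at D13211_s_at. Grin2c was at -0.24 and 0.31, Grin2d at 0.30 and -0.27, and Grin3a, a glycine-binding subunit, at 0.23, 0.06 and -0.63. The 95% interval for Grin1 at S39221_g_at ran from -0.62 to 0.99 and for Grin2b from -0.44 to 0.88, and changes within these bounds could not be told from no change with 4 cultures.

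No gene of the other glutamate receptor, GABA and glycine receptor or ion channel lists passed with all arrays at its brightest probe set. Median differences were -0.11 over 7 AMPA and kainate subunit genes, -0.22 over 6 metabotropic glutamate receptor genes and 0.02 over 14 GABA and glycine receptor genes, beside -0.04 over all probe sets. Gria1, an AMPA receptor subunit, was at -1.06 (adjusted p = 0.367) with a mean signal of 1363 ± 1069.7 after NMDA and 2247 ± 646 in control (SD, n = 4 each). Sodium and calcium channel genes had a median of -0.24 over 16 genes, 14 of them below 0, against 465 of 884 in all. Among them Scn2a, a neuronal sodium channel gene, was at -0.87 (adjusted p = 0.245) and Cacnb2 was highest at 0.81 (adjusted p = 0.634). Without the 2 arrays that stand apart the median of this list was -0.43, beside -0.13 over all probe sets. Cacnb3 then fell at its brightest probe set, at -0.74 (adjusted p = 0.0403). Potassium channel genes had a median of 0.30 over 16 genes, 12 of them above 0, with Kcna1, a delayed rectifier gene, at 0.94 (adjusted p = 0.275).

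Synaptic and structural gene lists had medians below that of all probe sets, and no member passed with all arrays at its brightest probe set. They were -0.37 over 14 vesicle and release genes, -0.35 over 15 postsynaptic scaffold and calcium signalling genes and -0.56 over 9 cytoskeleton and growth genes. Without the 2 arrays these medians were -0.46, -0.40 and -0.17, beside -0.13 over all. Nefl, on the cytoskeleton list, rose at the dimmer M25638_s_at with all arrays and at its brighter probe set without the 2, as given above, and Tubb5 on that list and Nrxn2 on the vesicle list fell without the 2 at probe sets other than their brightest. Gap43, a growth cone protein gene, was at -1.21 (adjusted p = 0.426) with all arrays and -0.17 without the 2, and Sv2a, a vesicle protein gene, was at -1.41 (adjusted p = 0.254) and -0.60. Transmitter transport and synthesis genes had a median of -0.25 over 12 genes. Slc1a6 was not among the genes on that list.

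Genes of cell death, stress and energy supply showed no member past the threshold with all arrays at its brightest probe set. Medians were -0.06 over 13 cell death genes, -0.15 over 9 stress response genes and 0.24 over 8 energy metabolism genes. Without the 2 arrays these medians were -0.26, 0.20 and 0.25, beside -0.13 over all. Faim2, on the cell death list, then fell at its brightest probe set, at -0.94 (adjusted p = 0.0306). Bax and Bcl2, which promote and restrain apoptosis, were at 0.19 (adjusted p = 0.871) and -0.01 (adjusted p = 0.993). The stress genes Hmox1, a haem oxygenase, and Hspa1a, an inducible heat shock protein, were at -0.15 (adjusted p = 0.928) and -0.60 (adjusted p = 0.699). In the further pulse set, with 1 array a group, they were higher after NMDA, by 2.72 and 4.52. There Hspb1, a small heat shock protein, was higher by 1.84, against -0.25 (adjusted p = 0.889) in the 4 cultures. Without the 2 arrays that stand apart, Hmox1, Hspa1a and Hspb1 were at 0.26, 0.03 and -0.08. The sets thus differed in direction for these genes with all arrays, but for Hspb1 alone without the 2. Slc2a3, the neuronal glucose transporter, was at 0.79 (adjusted p = 0.254).

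Markers of cell types were read on the same arrays. The summed signal of 15 neuron markers ran from 64191 to 265308 after NMDA, the lowest being culture 3, and from 216928 to 257736 in control. In the other 3 cultures it was 182860.0, 222099 and 265308 after NMDA, against 223739, 257736 and 216928 in control. The median difference of the 14 tested was -0.35 with all arrays and -0.11 without the 2, and none passed with all arrays at its brightest probe set, while Nefl, a member, rose at M25638_s_at. The 8 astrocyte markers, 7 of them bright enough to be tested, summed to 33376 to 47685 after NMDA and 32418 to 46366 in control (signal units). Such a sum does not show that each marker was present. The 6 oligodendrocyte markers summed to 4466 to 14845 after NMDA and 4059 to 14977 in control, and the 2 endothelial and meningeal markers to 715 to 1729.8 after NMDA and 627 to 1351 in control. On this array there was 1 microglia marker, and it was too dim to be tested. No member of the other marker lists passed with all arrays at its brightest probe set. The part of these marker levels in the results was not tested.

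No probe set separated the 10 min pulse from the 30 or 60 min pulse of the same cultures past the threshold. All 25 probe sets that rose after 10 min were above control after 30 and 60 min too, with medians of 1.94, 1.74 and 1.77 after 10, 30 and 60 min, and the 3 comparisons share their controls. Bdnf (D10938exon_s_at) was at 3.12, 2.68 and 2.90, Nr4a1 (U17254_g_at) at 2.76, 2.22 and 2.44, and Slc1a6 at -2.15, -1.58 and -1.61. The differences of the 25 set directly between pulses use the 10 min arrays that chose them, and so are given as a description. They ran from -0.23 to 0.55 for 10 minus 30 min and from -0.48 to 0.67 for 10 minus 60 min. By limma 0 of 884 probe sets passed for 10 minus 30 min and 0 for 10 minus 60 min, with 15 and 20 below 0.05 before adjustment. The median distance from a difference to the end of its 95% interval was 0.824 for 10 minus 60 min. A 30 min array of culture 1 carries 60 min in 1 of its label fields, and without it 22 probe sets rose after 10 min.

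The smallest p-values for 10 minus 60 min belonged to Ltbp3, a binding protein of latent TGF-beta, at -1.44 (95% interval -2.26 to -0.61), Grin1 (U11418_s_at) at -1.41 (95% interval -2.25 to -0.57), Slco1a4, an organic anion transporter, at 1.29 (95% interval 0.48 to 2.10), the unnamed X66022mRNA#3_i_at at 1.27 (95% interval 0.42 to 2.12) and Pnck (D86556_i_at) at -1.18 (95% interval -2.02 to -0.33), all with an adjusted p of 0.986. For 10 minus 30 min they belonged to Ltbp3 at -1.60 (95% interval -2.42 to -0.78), Pnck at -1.51 (95% interval -2.35 to -0.66), Glul, glutamine synthetase, at -1.02 (95% interval -1.85 to -0.18) and the unnamed X17607cds_s_at and AF030091UTR#1_g_at at 1.01 (95% interval 0.17 to 1.86) and 0.73 (95% interval 0.11 to 1.35), with adjusted p of 0.761 and above. For Bdnf (D10938exon_s_at) the 10 min pulse exceeded the 60 min pulse by 0.22 (95% interval -0.56 to 1.00) and for Fos (X03347cds_g_at) by 0.38 (95% interval -0.24 to 1.00). A 10 min pulse that differed from a 60 min pulse by less than these intervals could not be told from it here.

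The genes that rose were next read in the cultures treated for 10 min with no washout or later harvest given. There, 0 of 848 probe sets passed against their own controls, with 61 at an unadjusted p under 0.05. The 25 probe sets that rose a day after the pulse had a median of 0.11 there, from -1.22 to 1.43, and 15 of them were above 0, while the median over all 848 was -0.04. The difference between the effects, each against its own controls, passed for 10 probe sets that were higher after the pulse, which is 1.18%, and for 2 that were lower, which is 0.236%. All 10 belong to the 25, which were chosen for a large pulse effect, so the direction of their difference was largely set by that choice. The pulse and continuous arrays came from different experiments and runs, and as labelled they also differ in washout and harvest time. Each effect was taken within its own run. Experiment, washout and harvest time still cannot be told apart, in the levels or in the difference between the effects.

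Bdnf (S71196mRNA_s_at) had 89.9, 277 and 120.3 in continuous NMDA on replicates 2 to 4, against 567, 163 and 934 in their controls, and the pulse effect exceeded the continuous effect by 3.72 (SE 0.66, adjusted p = 0.00594). The pulse signals above were all higher than their controls, while here the treated signals were mostly below. The signals of 89.9 and 120.3 were near the offset of 86.0, where the size of a log2 difference depends on the offset. Nptx2 (S82649_s_at) had 1223, 728 and 1487 in continuous NMDA, against 1466, 938 and 1368 in control, and differed by 2.44 (SE 0.48, adjusted p = 0.0113). The other probe sets that differed were Bdnf (S76758_i_at) by 3.05 (SE 0.72, adjusted p = 0.0333), Sst (K02248cds_s_at) by 1.99 (SE 0.47, adjusted p = 0.0333) and Slc1a6 by -2.76 (SE 0.66, adjusted p = 0.0333). Also past the threshold were Bdnf (D10938exon_s_at) at 2.44, Fos (X03347cds_g_at) at 2.64, Nr4a1 at 2.51 and 2.49, Tac1 (X56306_s_at) at 1.56, AF030087UTR#1_at at 2.49 and Tagln3, an actin-associated protein of neurons, at -1.27.

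These differences rested on few arrays. The arrays that stand apart in either run include replicates 2 and 3 of the continuous group. Their GAPDH ratios of 3′ to 5′ signal were 2.41 and 2.27, against 1.61 on replicate 4 and 1.29 to 1.75 in the controls. Without the arrays that stand apart, only replicate 4 of continuous NMDA is left, and the difference for Bdnf (D10938exon_s_at) was 3.21. Without the treated array of culture 3 alone, 2 passed, Bdnf (S71196mRNA_s_at) at 3.52 and Nptx2 at 2.14. Without the culture blocks 1 passed. Leaving out 1 other array at a time, 0 were higher without continuous control replicate 2, and 2 without the treated or the control array of culture 2 or continuous control replicate 3. There were 3 without the control of culture 4 or continuous NMDA replicate 2 or 4, and 6 without continuous control replicate 4.

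**Figure D5:**
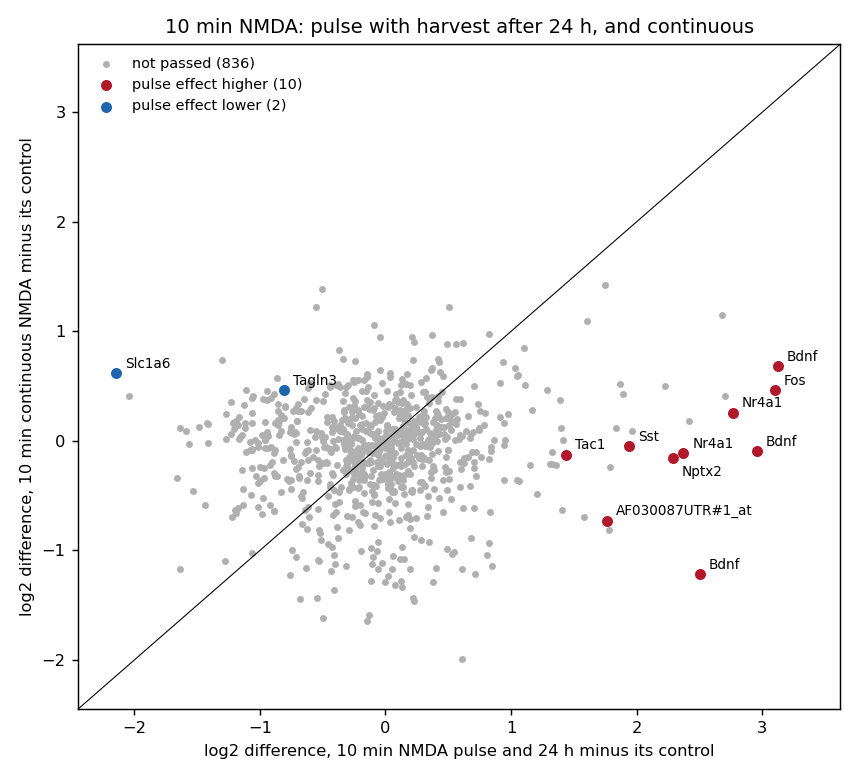
Log2 difference against its own control for the 848 probe sets tested in both runs, after a 10 min NMDA pulse and 24 h (horizontal axis) and in continuous NMDA for 10 min (vertical axis), with the line of equal values. The 10 probe sets whose pulse effect was higher past the threshold (red) lie to the right between 1.44 and 3.12 with continuous effects between -1.22 and 0.68, and Slc1a6 and Tagln3 (blue) lie to the left.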

How the data were processed

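RNA of each sample was hybridised to an Affymetrix rat neurobiology array of 1322 probe sets, of which 59 are controls. The deposited values are linear intensities per probe set, scaled by the authors so that the mean after trimming 2% at each end was 2509.52 to 2513.43 on the arrays used, as read from the files. The sources used here do not name the software. Of the remaining 1263 probe sets, the platform annotation gives 1137 1 gene each, 8 several and 118 none.

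Probe sets with a mean below the 30th percentile were left out, and log2(signal + the 10th percentile, 63.1 for the pulse arrays and 86.0 for the continuous arrays) was fitted over all 16 pulse arrays with limma 3.58.1 in R 4.3.3 (intensity trend, 9 residual degrees of freedom, Benjamini-Hochberg adjustment, threshold 0.05). The culture label was a block. Deviations from group means correlated between the treated and control array of the same label at 0.27, 0.31, 0.26 and 0.12. Between arrays of different groups, 20 of 24 pairs of the same label were over 0.1, and 11 of 72 pairs of different labels were too. The labels were taken to pair the samples, although the value for culture 4 also occurs between different labels. Without the block 20 probe sets rose and 0 fell. Each difference between pulse and continuous effects was fitted over both runs with 848 probe sets. The fit was tested on simulated data with independent noise. Those data held no array that stands apart, so the test says nothing about such arrays. Arrays stood apart where their median correlation lay over 3 median absolute deviations below the median of their run, 0.868 for the pulse run.

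The rule for names took, past the threshold, up to 20 probe sets by size of rise and up to 15 by size of fall, members of gene lists that passed, other probe sets of those genes, the 5 smallest p-values where fewer than 5 passed, and NMDA receptor subunits. A gene in a list stands for its brightest probe set. The members and lists were chosen with earlier results of these data known. The number of arrays limits the precision. Alternatives changed the offset, filter, scaling, trend, block, samples and repeat arrays.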

Additional observations from a re-analysis of the deposited data

Results flagged for a closer look

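Among 128 groups of 4 arrays, 13 held 1 array far from the other 3, and chance gives about 1 in 20. The treated array of culture 3 was the one apart 4 times. Its Crem (S66024_g_at) signal was 12031, against 3860.3 to 4646 on the other treated arrays. It was lowest for Nefl (AF031880_at), at 1294 against 13737 to 21702, and for Nrxn2 (rc_AI008021_s_at), at 1396 against 4164 to 4894. Its median correlation with the other arrays was 0.627. The treated array of culture 1 was high for Fos (X06769cds_g_at), at 34052 against 14975 to 16748, and low for Grin3a, at 632 for U29873_at and 285 for AF061945_g_at.

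On the control arrays, Bdnf (S71196mRNA_s_at) was at 107 in culture 3, against 302 to 329 in the others, and AF030088UTR#1_at was at 49.99 in culture 2. Igf1 (M15481_at) was at 623 and Tubb5 (AB011679_at) at 2835 in culture 1. The ratio of 3′ to 5′ signal for GAPDH was 1.75 in culture 3 and that for actin was 1.21 in culture 2.

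The effect of the 10 min pulse after 24 h differed from that of 10 min in continuous NMDA, by limma's test of the difference, at 12 probe sets. On the log2 scale, pulse effect minus continuous effect, it was 3.72 for Bdnf (S71196mRNA_s_at), 3.05 for Bdnf (S76758_i_at), 2.44 for Bdnf (D10938exon_s_at) and 2.44 for Nptx2 (S82649_s_at). It was 2.64 for Fos (X03347cds_g_at), 2.51 and 2.49 for Nr4a1 (U17254_g_at and U17254_at), 1.99 for Sst (K02248cds_s_at), 1.56 for Tac1 (X56306_s_at) and 2.49 for AF030087UTR#1_at. It was below 0 for Slc1a6 (U89608_at) at -2.76 and Tagln3 (M84725_at) at -1.27.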

How the results depend on the processing

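No value past the threshold changed direction under any alternative run, while some NMDA receptor subunit values that did not pass changed sign near 0. The 25 probe sets that rose and 1 that fell became 20 and 0 with no replicate block, 25 and 0 with a filter at the median, 25 and 2 with quantile normalization, 27 and 2 with median centring and 27 and 2 with no intensity trend. They became 12 and 0 with only the treated and control arrays, 30 and 5 with repeat arrays in place of the first ones, 32 and 19 without the arrays that stand apart, and, in an alternative chosen after seeing the data, 20 and 3 without those arrays and with no block. Leaving out 1 array at a time gave 18 to 24 that rose and 0 to 3 that fell, with 0 without treated culture 4 or the controls of cultures 1 or 2, 2 without treated culture 2 or control culture 3, and 3 without treated culture 3. The 10 higher and 2 lower differences from the continuous effect became 1 and 0 with no block. They became 8 and 1 with a filter at the median, 6 and 2 with no filter, 2 and 0 with quantile normalization and 3 and 2 with median centring. They ranged from 0 to 15 and from 0 to 3 when 1 array was left out. Without the arrays that stand apart, only replicate 4 of continuous NMDA is left, so no count is given for that fit. The number of probe sets past the threshold between pulse lengths was 0 in all alternatives run. The probe sets of Fos, Bdnf and Nr4a1 that rose, and Penk, passed under all 22 alternatives, while AF030087UTR#1_at failed 11, Pnoc 10, Vgf 8, Nefl and Nr4a3 7 each, Jun and Tac1 5 each and Slc1a6 6 of 21. The cause of these changes was not tested. Dim probe sets near the offset, such as that of Slc1a6, have the least certain size.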
